A study of Mus musculus with 24 samples.

Results

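The genes followed here were 10 of the 55487 listed in each table: the myogenic regulatory factors Myog, Myod1, Myf5 and Myf6, the satellite cell factor Pax7, the class IIa histone deacetylase gene Hdac4 with the transcription factor genes Mef2a and Mef2c, and Runx1 and Ncam1, known as genes that rise in muscle without nerve input. They were chosen by name, as regulators of muscle identity and of the response to lost innervation, and were found through their Ensembl identifiers. All 10 passed the filter on low values. RNA of the gastrocnemius, a calf muscle, was sequenced from 24 male C57BL/6J mice, 1 library per mouse, in 3 groups of 8. The mice were 10 weeks old when obtained per the series' design text, and 12 weeks is the age in the labels. The uncasted group had no cast and was injected intraperitoneally with sterilized water 2 times a day for 8 days. The casted group had both hindlimbs immobilized by casting for 8 days and received the same water injections. The casted group with MOTS-c had the same casts and received MOTS-c, a peptide encoded in mitochondrial DNA, at 15 mg/kg/day in 2 injections a day for 8 days. No uncasted mice with MOTS-c were analysed here. No group was denervated by design, and the innervation of the casted muscle was not measured.

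The deposited values are TPM (transcript abundances), a share of a library's total corrected for transcript length. They were scaled between libraries as described under the processing, and levels below are scaled TPM. Log2 changes are on the scale log2(scaled TPM + 1), which understates the change of low genes. A gene was called where limma's Benjamini-Hochberg adjusted p over all 14690 tested genes was under 0.05. The libraries held 19832 to 21755 genes above 0, and their depth is unknown. The muscle label was checked against 10 muscle fibre markers, which summed to 146300 to 170200 scaled TPM in the uncasted, 69460 to 106700 in the casted and 72890 to 129100 in the casted libraries with MOTS-c. Without the added scaling, the median of all tested genes was 0.39 higher (log2) in casted than in uncasted libraries, against 0.01 with it, so directions below are relative to the middle of all genes and the deposited scale is given where a member's direction or a call turns. Casted replicates 1 to 4 and 5 to 8 were known from an earlier look at these data to stand apart, and in the casted group with MOTS-c replicate 5 lay nearest to the uncasted libraries for several of the genes. Results that rest on them are given with and without them. Since the split of the casted replicates was known beforehand from these data, adjusted p-values from 1 part of it are descriptions.

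The myogenic regulatory factors are basic helix-loop-helix proteins that pair with E proteins and bind the E-box, CANNTG, at muscle genes. Myod1 and Myf5 commit precursor cells to the muscle lineage, Myog drives terminal differentiation, and Myf6, also called MRF4, is the family member most abundant in adult fibres. In adult muscle, loss of nerve activity raises Myog and the acetylcholine receptor genes. HDAC4 represses MEF2-dependent transcription and gathers in fibres after denervation. Runx1, which encodes a RUNX family factor, and Ncam1, the neural cell adhesion molecule gene, are low in innervated adult fibres and rise after denervation.

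The coding sequences of the myogenic factors are alike in part, and the length of identical runs bears on how reads could be counted between them. The stretch of 60 coding bases most alike in all 4 genes is shown, read from the annotated transcripts of GENCODE M21 (GRCm38), 5′ to 3′ on the coding strand, with capitals for the bases that all 4 share. It lies within 1 coding exon of each gene.
Myog, chr1:134290386-134290445, plus strand: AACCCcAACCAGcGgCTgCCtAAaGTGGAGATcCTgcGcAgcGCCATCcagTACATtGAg
Myod1, chr7:46377087-46377146, plus strand: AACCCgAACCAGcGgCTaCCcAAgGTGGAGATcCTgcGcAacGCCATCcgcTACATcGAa
Myf5, chr10:107485536-107485595, minus strand: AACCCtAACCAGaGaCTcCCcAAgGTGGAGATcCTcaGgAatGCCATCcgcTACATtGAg
Myf6, chr10:107494279-107494338, minus strand: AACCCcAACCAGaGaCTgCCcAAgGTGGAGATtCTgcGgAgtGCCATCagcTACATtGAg

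In this window 43 of 60 bases were the same in all 4 genes. Between any 2 of them, 47 bases (Myog and Myf5) to 53 bases (Myf5 and Myf6) were the same. Over the whole coding sequences, the longest identical run between any 2 was 11 bases (Myog and Myf5) to 26 bases (Myod1 and Myf5), and between Mef2a and Mef2c it was 17 bases. A read of more than 26 coding bases would thus not match 2 of the myogenic factors exactly. Myf5 and Myf6 are neighbours on chromosome 10 on the same strand, Myf5 at 107482908 to 107486134 and Myf6 at 107492853 to 107494737, and their annotated bounds do not overlap.

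Myog and Runx1 rose with casting, and their promoters are shown for the E-boxes, the motif that the myogenic factors bind, which are in capitals. They are RefSeq promoter windows of GRCm38.p6, from 250 bases before the start site on, 5′ to 3′ on the strand of the gene. For Runx1, which has more than 1 promoter in the table, the upstream one is shown, without its last 75 bases, which GENCODE places in the first exon. Of the Myog window GENCODE places the last 15 bases in the first exon, and they are shown.
Myog promoter, chr1:134289754-134290003, plus strand: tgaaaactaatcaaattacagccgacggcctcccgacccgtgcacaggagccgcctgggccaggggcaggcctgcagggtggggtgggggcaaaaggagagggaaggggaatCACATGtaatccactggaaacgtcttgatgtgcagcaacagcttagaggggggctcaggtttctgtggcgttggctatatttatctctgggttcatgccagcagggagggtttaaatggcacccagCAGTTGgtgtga
Runx1 upstream promoter, chr16:92826150-92826324, minus strand: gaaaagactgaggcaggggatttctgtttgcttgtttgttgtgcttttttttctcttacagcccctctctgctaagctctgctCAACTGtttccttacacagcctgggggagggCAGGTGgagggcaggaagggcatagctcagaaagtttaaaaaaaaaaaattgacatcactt

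In the 250 bases before the start site, counted back from -1, Myog held 2 E-boxes, with first bases at -138 and -12, and the second of these lies in the bases that GENCODE places in the first exon. The upstream window of Runx1 held 3, at -167, -136 and -71, of which the one at -71 lies in the exon bases not shown, and another Runx1 promoter in the table held 0. Of 32851 promoters of the same length in the table, 66.2% held at least 1 E-box, 31.8% at least 2 and 12.2% at least 3, so that these numbers are common. Of 3 Mef2c promoters, 1 held 2 E-boxes, 1 held 1 and 1 held 0, while no E-box was found in the windows of Myf5, Pax7, Hdac4 and Mef2a. The MEF2 consensus was searched as YTAWWWWTAR, where Y is C or T, W is A or T and R is A or G. This exact pattern, which 2.92% of all promoters held, was in no window of the 7 members that the table has. The Myog window holds ctatatttat, which differs from the pattern in the last base only, so that sites with such differences were not counted. The other motifs searched were CAGCTG, an E-box form counted among the above, TGTGGT and TATAAA, each on both strands. They stood in 13.0%, 14.05% and 12.37% of all promoters. Among the members, TGTGGT was found in Myf5 at -46, and TATAAA in Mef2c promoters at -107 and -22. A match describes letters only, and no binding was measured. No window was read for Myod1, Myf6 and Ncam1.

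In uncasted muscle the levels of the 10 genes differed widely, and TPM are corrected for length, so that they can be set beside each other. Mef2c was highest at 413 ± 21.8 (SD, n = 8 in each group here and below), followed by Myf6 at 97.8 ± 9.05 and Mef2a at 65.0 ± 5.38, and the ranges of these did not overlap. Hdac4 came next at 15.1 ± 2.63, then Myod1 at 10.4 ± 1.71 and Ncam1 at 7.98 ± 1.58, whose ranges overlapped from neighbour to neighbour. Myog followed at 3.55 ± 0.94, apart from both neighbours. Myf5 at 1.27 ± 0.16, Runx1 at 0.76 ± 0.19 and Pax7 at 0.73 ± 0.21 were lowest, and the ranges of Myf5 and Runx1 met, as did those of Runx1 and Pax7. Among the myogenic factors the order was thus Myf6, Myod1, Myog and Myf5. In casted muscle the order of the first 4 genes by mean was the same, but the ranges of Mef2c and Myf6 overlapped. Myf6 stood above Mef2c in each of casted replicates 5 to 8. Runx1 stood in sixth place with a range that overlapped those of Ncam1 and Myod1. In casted muscle with MOTS-c, Myog at 6.58 ± 1.68 stood above Myod1 at 5.57 ± 1.72, with overlapping ranges.

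**Figure D1:**
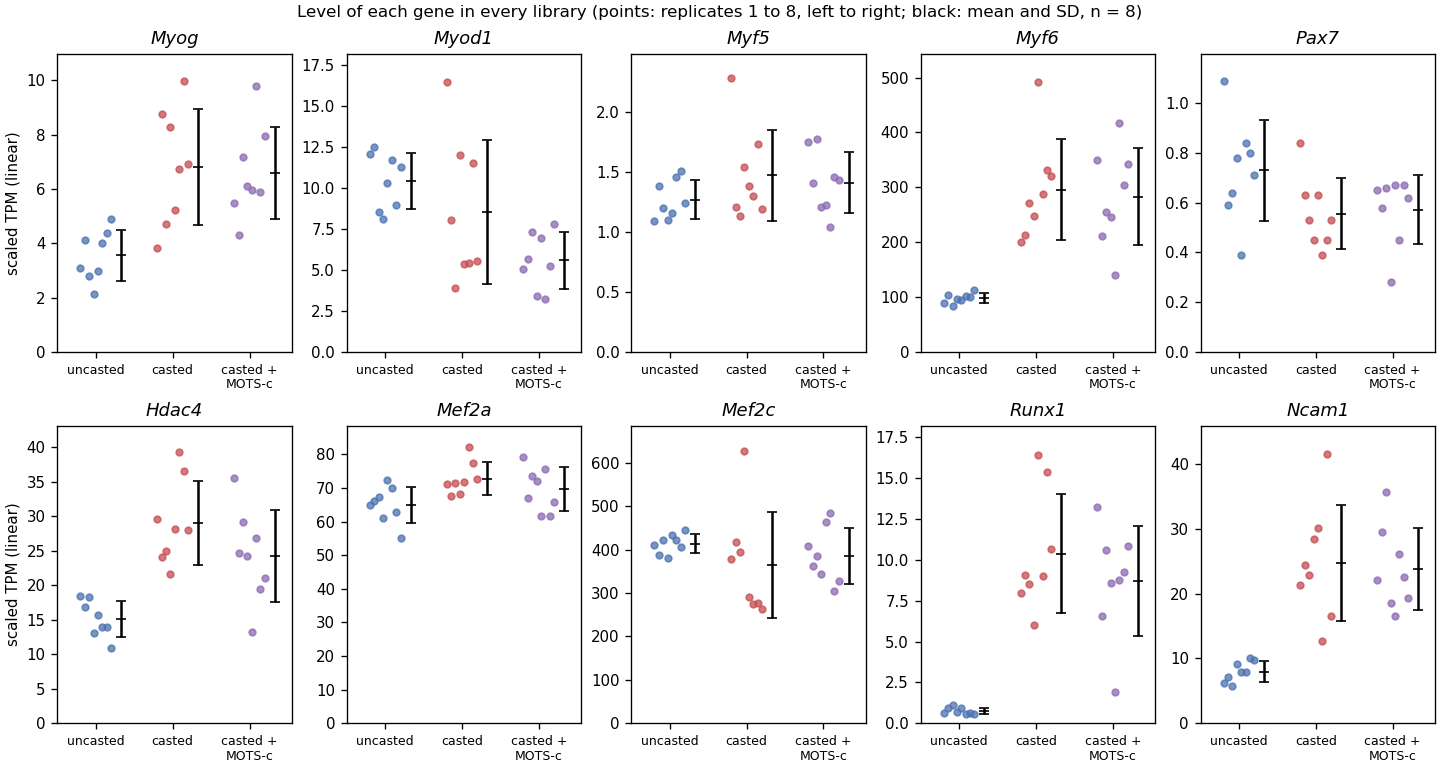
Each panel plots 1 gene in scaled TPM on a linear axis that starts at 0, with a point for each of the 8 libraries of a group (replicates 1 to 8 from left to right) and the mean with its SD in black. All casted libraries lay above all uncasted ones for Myf6, Hdac4, Runx1 and Ncam1, while Mef2c split between casted replicates 1 to 4 and 5 to 8.

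The first comparison asks how these regulators stood in water-injected mice after 8 days of casting. Of the 10 genes, 6 were higher in casted than in uncasted muscle (Runx1, Myf6, Ncam1, Hdac4, Myog and Mef2a) and 4 were not called. Of all 14690 tested genes, 28.7% were called higher and 27.7% lower, and the counts of marker lists below stand beside these shares. None of the 10 was called lower by limma, and at an unadjusted p under 0.05 the same count of 6 passed, where 61% of all tested genes did. Groups did not overlap for 4 of the 10, against 22.4% of all tested genes in either direction. On the TPM as deposited, 8 of the 10 were called higher and 0 lower, where 62.2% of all genes were higher and 7.43% lower. The median log2 change of the 10 was 0.46. In bulk muscle, a change in the number of cells of a type and a change in RNA per cell cannot be told apart.

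**Figure D2:**
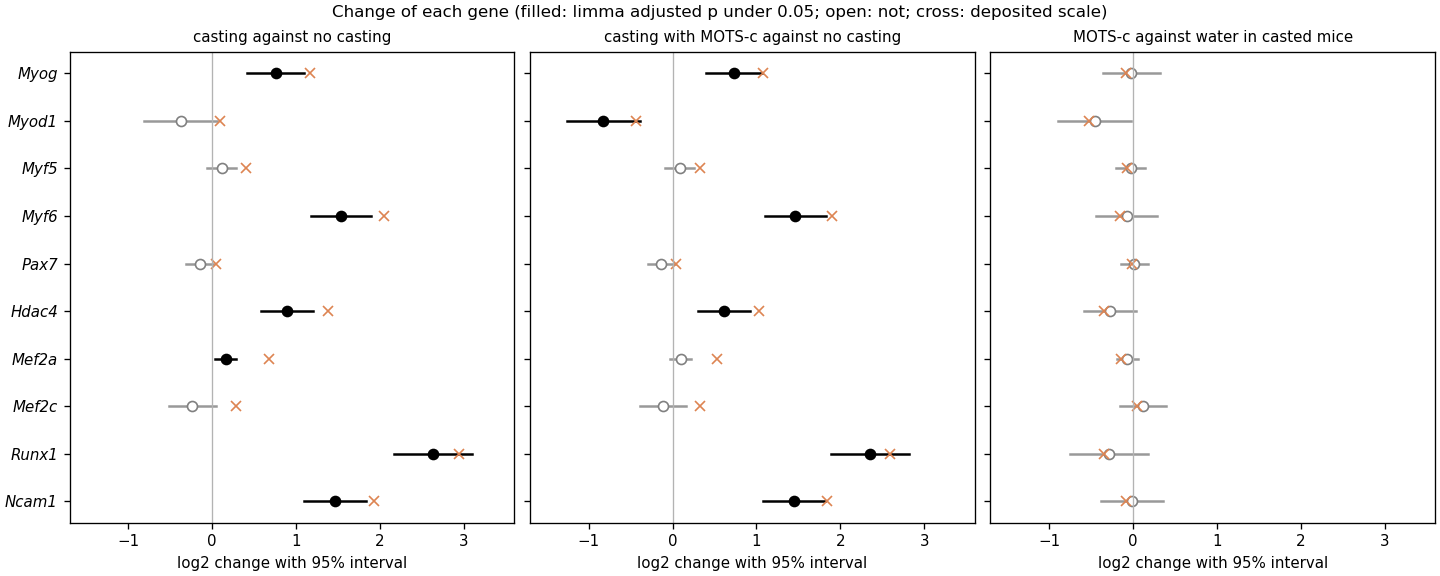
Log2 changes of the 10 genes with their 95% intervals from limma, 1 panel per comparison, with filled points for an adjusted p under 0.05, open points for the rest and crosses for the change on the deposited TPM scale. Runx1, Myf6 and Ncam1 lie farthest right in both comparisons with uncasted muscle, and the intervals against water in casted mice lie across 0 for 9 of the 10 genes.

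Among the myogenic factors, Myf6 rose most. It ran from 84.4 to 113 with a median of 98.1 scaled TPM in uncasted libraries, and from 200.2 to 492 with a median of 279 in casted ones. Every casted library was above every uncasted one, and replicate 5 was far above the other casted libraries. The log2 change was 1.54 ± 0.18 (SE, limma adjusted p = 8.39e-08), and the mean was 3.02-fold higher.

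Myog also rose, from a lower level. Uncasted libraries held 2.13 to 4.90 with a median of 3.55 scaled TPM, and casted ones 3.81 to 9.96 with a median of 6.83. Of the casted libraries, 6 were above the highest uncasted one, and replicates 1 and 3 were not. On the log2 scale it changed by 0.76 ± 0.16 (limma adjusted p = 0.000352), a 1.92-fold difference of means.

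Myod1 spread widely in casted muscle and was not called. It ran from 8.07 to 12.5 with a median of 10.8 scaled TPM in uncasted libraries, and from 3.92 to 16.5 with a median of 6.78 in casted ones. In casted muscle 5 libraries lay below the lowest uncasted one, and replicate 1 lay above the highest. Its log2 change was -0.37 ± 0.21 (95% interval -0.81 to 0.06, limma adjusted p = 0.135), and on the deposited scale 0.09. Without casted replicate 1 it was -0.52 with an adjusted p of 0.0249, and with casted replicates 5 to 8 alone it was -0.58 with an adjusted p of 0.0178.

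Myf5 was near 1 scaled TPM in all groups, 1.09 to 1.51 with a median of 1.22 in uncasted and 1.13 to 2.28 with a median of 1.34 in casted libraries. Casted replicate 1 was the highest library for Myf5, as it was for Myod1. The log2 change of 0.11 ± 0.09 was not called (limma adjusted p = 0.264), whereas on the deposited scale it was 0.40 with an adjusted p of 0.00102.

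Pax7, which marks satellite cells, the muscle stem cells, ran from 0.39 to 1.09 with a median of 0.75 scaled TPM in uncasted and from 0.39 to 0.84 with a median of 0.53 in casted libraries. The ranges overlapped throughout. The log2 change was -0.15 ± 0.08 (limma adjusted p = 0.117), and it was 0.05 on the deposited scale. Without uncasted replicate 5, the lowest of its group, it was -0.20 with an adjusted p of 0.0346. Of 12 other satellite cell markers, 9 passed the filter on low values, of which 4 rose and 4 fell, with a median of -0.12 against 0.01 for all genes (4 and 1 on the deposited scale, with a median of 0.24). Some of these markers, such as desmin, are also expressed by fibres.

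Hdac4 rose. Uncasted libraries held 10.9 to 18.4 with a median of 14.9 scaled TPM, and casted ones 21.6 to 39.3 with a median of 28.1. No casted library reached down to the uncasted range. On the log2 scale it changed by 0.89 ± 0.15 (limma adjusted p = 1.96e-05), a 1.92-fold difference of means. The annotated exons of Hdac4 overlap those of no other gene.

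Mef2a, which encodes a MEF2 factor that HDAC4 can bind and repress, was called higher, by an amount that depended on the scaling. It ran from 55.1 to 72.4 with a median of 65.5 scaled TPM in uncasted and from 67.5 to 82.2 with a median of 71.7 in casted libraries. Only 3 casted libraries lay above the highest uncasted one. Its log2 change was 0.16 ± 0.06 (limma adjusted p = 0.0276), and on the deposited scale it was 0.67 (adjusted p = 6.73e-07). With the scaling the call was lost without any 1 of uncasted replicates 4 and 8 and casted replicates 6 and 7 (adjusted p = 0.0633, 0.0852, 0.0635 and 0.0521). With casted replicates 1 to 4 alone it was 0.10 with an adjusted p of 0.289. Exons of Mef2a share 302 bases with exons of Lysmd4 on the other strand and the strand setting of the counting is unknown here, so that reads of the overlap cannot be assigned.

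Mef2c, the MEF2 gene most abundant here, split the casted group. Uncasted libraries held 380.5 to 445 with a median of 416 scaled TPM. Casted replicates 1 to 4 held 379, 417, 394 and 628 scaled TPM, and replicates 5 to 8 held 290, 274, 277 and 263. The first 4 lay within or above the uncasted range, apart from replicate 1 just under it, and the other 4 lay below all uncasted libraries. Over all 8 the log2 change was -0.24 ± 0.14 (limma adjusted p = 0.139), and it was 0.28 on the deposited scale with an adjusted p of 0.0304. With replicates 1 to 4 alone it was 0.11 (adjusted p = 0.503), with 5 to 8 alone -0.59 (adjusted p = 2.79e-05), and without replicate 4, the highest, -0.36 (adjusted p = 0.00581). The labels name no batch for these replicate numbers, and the part of any such difference in the result was not tested.

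**Figure D3:**
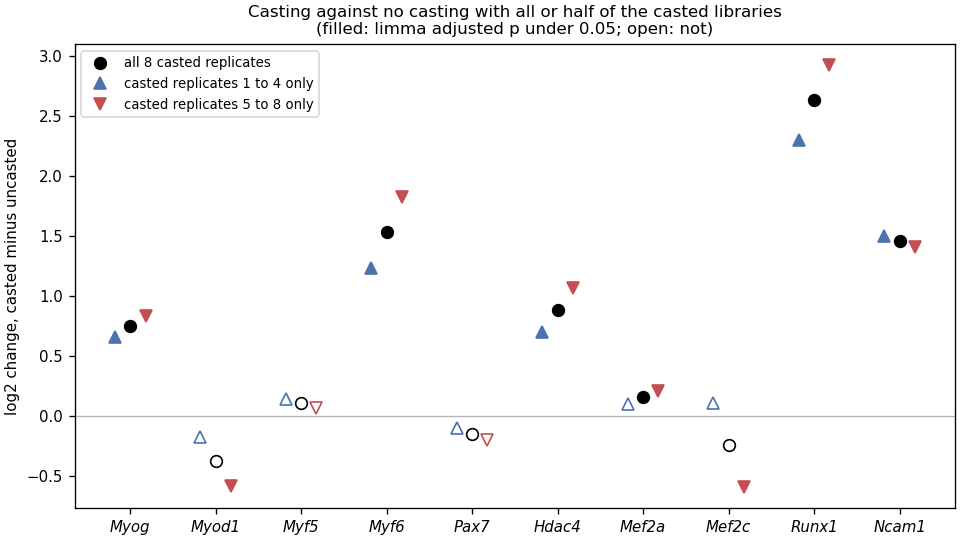
Log2 change of each gene, casted minus uncasted, with all 8 casted libraries (circles), with casted replicates 1 to 4 (upward triangles) and with 5 to 8 (downward triangles), filled where the limma adjusted p was under 0.05. Mef2c lies at 0.11 with replicates 1 to 4 and at -0.59 with 5 to 8, while Runx1, Myf6, Ncam1, Hdac4 and Myog are filled in all 3. The split was known from an earlier look at these data, so that the triangles are descriptions.

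Runx1 had the largest rise of the 10 genes and the 28th largest of all 14690 tested. It was near the bottom of the uncasted libraries, with 0.57 to 1.09 and a median of 0.68 scaled TPM, and it held 6.02 to 16.4 with a median of 9.02 in casted ones. The lowest casted library was thus several times above the highest uncasted one. The log2 change was 2.64 ± 0.23 (limma adjusted p = 1.1e-09), and the mean was 13.6-fold higher. With casted replicates 1 to 4 alone the change was 2.31, and with 5 to 8 alone 2.92. Exons of Runx1 share 106 bases with an antisense gene, Gm26626, and reads of the 2 cannot be told apart without strand.

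Leukocytes also express Runx1. Of 10 macrophage and leukocyte markers 8 passed the filter, of which 5 rose and none fell, with a median log2 change of 0.47, and the count of 5 is by limma's adjusted p. From casted replicates 1 to 4 alone 8 rose, with a median of 0.73, with 5 to 8 alone 3 rose, with a median of 0.28, and on the deposited scale 8 rose, with a median of 0.84. Their sum ran from 34.1 to 47.8 scaled TPM in uncasted, from 51.8 to 131 in casted and from 65.9 to 136 in casted libraries with MOTS-c. None of the 10 markers was at 0 in all 24 libraries, and the T cell marker Cd3e did not pass the filter. The part of these cells in the rise of Runx1 was not tested.

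Ncam1 rose as well. Uncasted libraries held 5.78 to 10.01 with a median of 7.87 scaled TPM, and casted ones 12.6 to 41.5 with a median of 23.6. The groups were apart, and casted replicate 7 was the highest and replicate 6 the lowest of a wide casted range. On the log2 scale it changed by 1.46 ± 0.18 (limma adjusted p = 2.57e-07), a 3.10-fold difference of means. Exons of Ncam1 share 417 bases with the antisense gene Gm11149.

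Schwann cells express Ncam1 too. Of 10 Schwann cell and nerve markers, all past the filter, 1 rose and 7 fell, with a median of -0.46. The 1 that rose was Ngfr (0.752 ± 0.095). Their sum ran from 115 to 171 scaled TPM in uncasted, from 71.6 to 103 in casted and from 80.0 to 184 in casted libraries with MOTS-c. On the deposited scale 1 rose and 2 fell, with a median of -0.03. The part of these cells in the change of Ncam1 was not tested.

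The second comparison sets casted mice with MOTS-c against uncasted mice, and it shares the uncasted libraries with the first. Of the 10 genes 5 were higher (Runx1, Myf6, Ncam1, Myog and Hdac4) and 1, Myod1, was lower, where 26% of all tested genes were higher and 24.7% lower. On the TPM as deposited, 8 were called higher and 0 lower, against 60% and 6.94% of all genes, and Myod1 was then not called (-0.44, adjusted p = 0.0767). Groups did not overlap for 4 genes (Runx1, Myf6, Ncam1 and Myod1), against 15.4% of all tested genes. At an unadjusted p under 0.05, 6 of the 10 passed, where 56% of all tested genes did.

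Myod1 in casted muscle with MOTS-c ran from 3.22 to 7.78 with a median of 5.45 scaled TPM, below the 8.07 of the lowest uncasted library. Its log2 change was -0.83 ± 0.21 (limma adjusted p = 0.0021), a mean of 5.57 ± 1.72 against 10.4 ± 1.71. Runx1 ran from 1.94 to 13.2 with a median of 9.02, and its log2 change was 2.36 ± 0.23 (limma adjusted p = 1.16e-08). Replicate 5 was the lowest by a wide margin, and without it the change of Runx1 was 2.59.

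Myf6 ran from 141 to 417 with a median of 279 scaled TPM, again with replicate 5 at the bottom, and changed by 1.46 ± 0.18 (limma adjusted p = 3.19e-07). Ncam1 ran from 16.6 to 35.7 with a median of 22.3 and changed by 1.45 ± 0.18 (limma adjusted p = 5.09e-07). Replicate 5 was once more the lowest, yet above all uncasted libraries for both genes. Myog ran from 4.32 to 9.78 with a median of 6.03, and its change was 0.74 ± 0.16 (limma adjusted p = 0.000583).

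Hdac4 ran from 13.2 to 35.6 with a median of 24.4 scaled TPM, and its log2 change was 0.62 ± 0.15 (limma adjusted p = 0.00139). Replicate 5 alone fell within the uncasted range, and without it the change was 0.73. Mef2a (0.10 ± 0.06, limma adjusted p = 0.203), Mef2c (-0.12 ± 0.14, adjusted p = 0.497), Myf5 (0.09 ± 0.09, adjusted p = 0.419) and Pax7 (-0.13 ± 0.08, adjusted p = 0.171) were not called. On the deposited scale Mef2c turned and was called higher at 0.32 (adjusted p = 0.0145), Mef2a and Myf5 were called higher at 0.53 and 0.33, and Pax7 was at 0.04 and not called.

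The third comparison asks whether MOTS-c changed these genes in casted muscle. None of the 10 was called by limma, and at an unadjusted p under 0.05 Myod1 alone passed, 1 of 10 where 13.5% of all tested genes did. Among all tested genes 0.0136% were higher and 0.00681% lower, and 0.0749% had groups that did not overlap, as none of the 10 did. Myod1 had a log2 change of -0.46 ± 0.21 (95% interval -0.89 to -0.02, unadjusted p = 0.0411, limma adjusted p = 0.356). Of the libraries with MOTS-c 2 lay below all casted ones, and without casted replicate 1 the change was -0.31.

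The other intervals leave room for changes in either direction. They were -0.58 to 0.04 for Hdac4, -0.75 to 0.18 for Runx1, -0.44 to 0.29 for Myf6, -0.36 to 0.32 for Myog and -0.38 to 0.36 for Ncam1. Narrower ones were those of Mef2a (-0.19 to 0.06), Myf5 (-0.20 to 0.15) and Pax7 (-0.15 to 0.18). For Mef2c the interval was -0.16 to 0.40 over all casted libraries. Against casted replicates 5 to 8 alone Mef2c was called higher with MOTS-c (0.48, limma adjusted p = 0.00607), where 709 of 14400 tested genes were called higher and 708 lower. Against 1 to 4 alone its change was -0.22 (adjusted p = 0.995). Without MOTS-c replicate 5 the change of Runx1 went from -0.28 to -0.05, that of Hdac4 from -0.27 to -0.16 and that of Myf6 from -0.08 to 0.06, and none was called. The MOTS-c libraries themselves held 304 to 484 scaled TPM of Mef2c with a median of 374.

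The ratio of 2 genes within a library does not depend on the scaling between libraries. Ratios of Myog to Myf6, Myog to Myod1, Mef2c to Mef2a and Hdac4 to Hdac5 were compared in the 3 comparisons by exact two-sided permutation tests over 12870 splits of 8 against 8 libraries, 12 tests in all, on log2 ratios of deposited TPM with 0.1 added. The smallest p these tests can give is 0.000155. Myog stood below Myod1 in all 8 uncasted libraries, with a mean log2 ratio of -1.55 ± 0.32 (SD). It stood above Myod1 in 4 of 8 casted libraries (-0.23 ± 0.81) and in 5 of 8 with MOTS-c (0.26 ± 0.64).

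The rise of the Myog to Myod1 ratio with casting was 1.32 on the log2 scale (exact permutation p = 0.00218, adjusted p = 0.0087). Casted replicate 1, at -2.09, stood apart from the other casted libraries and lay below every uncasted one. With casted replicates 1 to 4 alone the rise was 0.99, with an adjusted p of 0.0679. Against uncasted muscle the libraries with MOTS-c were 1.81 higher with no overlap (exact permutation p = 0.000155, adjusted p = 0.00187). Between MOTS-c and water in casted mice the difference of 0.49 was not called (exact permutation p = 0.224, adjusted p = 0.299).

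Myf6 rose more than Myog. The log2 ratio of Myog to Myf6 was -4.77 ± 0.31 in uncasted, -5.43 ± 0.61 in casted and -5.38 ± 0.42 in casted libraries with MOTS-c. The change was -0.66 with casting (exact permutation p = 0.0134, adjusted p = 0.0267) and -0.60 for casting with MOTS-c (exact permutation p = 0.00793, adjusted p = 0.019). The first of these was lost when any 1 of uncasted replicates 2, 6, 7 and 8 or casted replicate 5 was left out, with adjusted p of 0.0522, 0.0516, 0.0584, 0.0575 and 0.0519. With casted replicates 1 to 4 alone it was -0.47 with an adjusted p of 0.139.

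Hdac4 rose against Hdac5, its class IIa relative. The log2 ratio was -0.94 ± 0.28 in uncasted and -0.13 ± 0.35 in casted libraries, and Hdac4 exceeded Hdac5 in 0 of 8 and in 4 of 8. The rise was 0.81 (exact permutation p = 0.000777, adjusted p = 0.00466). With MOTS-c the ratio was -0.24 ± 0.54, which was 0.70 above the uncasted libraries (exact permutation p = 0.00668, adjusted p = 0.019). Hdac5 itself was 28.9 ± 3.28 in uncasted and 31.6 ± 4.24 scaled TPM in casted muscle.

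The log2 ratio of Mef2c to Mef2a was 2.67 ± 0.15 in uncasted, 2.27 ± 0.50 in casted and 2.46 ± 0.22 in casted libraries with MOTS-c. Neither difference from uncasted muscle was called (-0.40 and -0.21, exact permutation p = 0.0424 and 0.0421, both with an adjusted p of 0.0636). The value again differed between casted replicates. With 1 to 4 alone the casting difference was 0.01 (exact permutation, adjusted p = 0.982), with 5 to 8 alone -0.81 (adjusted p = 0.00485), and without replicate 4 it was -0.54 (adjusted p = 0.00249). For casting with MOTS-c the difference was called without MOTS-c replicate 5 (-0.28, adjusted p = 0.00435) or 6 (-0.25, adjusted p = 0.0408).

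**Figure D4:**
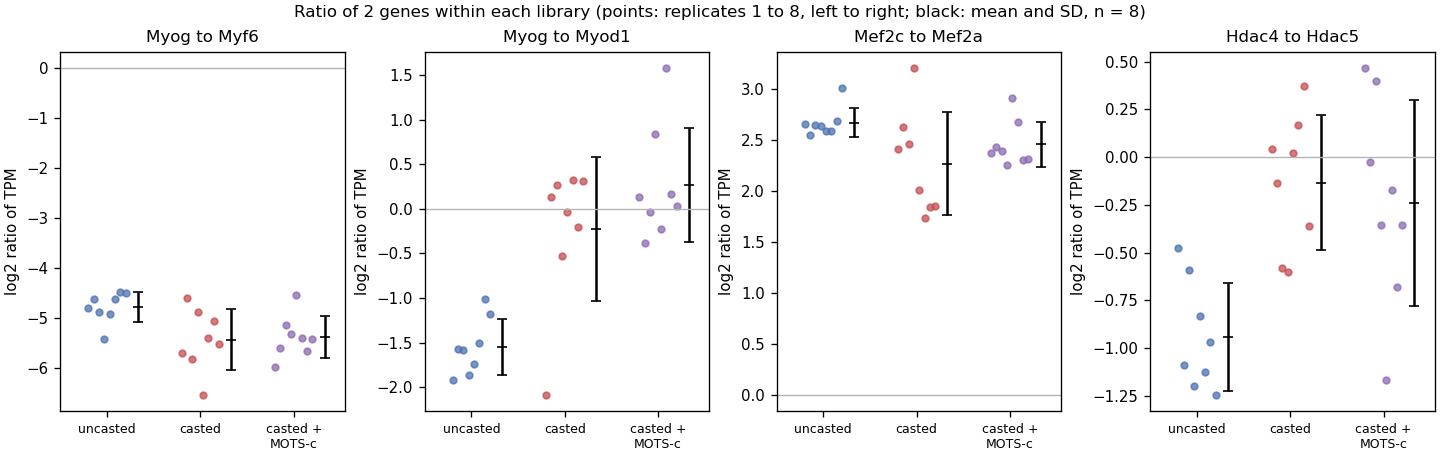
Log2 ratio of 2 genes within each library, from deposited TPM with 0.1 added, with points for replicates 1 to 8 from left to right and the mean with its SD in black. A value above 0 means that the first gene had the higher TPM, as Myog against Myod1 in 4 of 8 casted and 0 of 8 uncasted libraries.

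The partners, inhibitors and co-activators of the myogenic factors moved in both directions with casting, as did all tested genes. Of 23 such genes 22 were tested, 6 rose and 8 fell, with a median log2 change of -0.16 (0.14 on the deposited scale). Beside these counts, and those of the following lists, 28.7% of all tested genes were higher and 27.7% lower. Zeb1, a repressor that competes for E-boxes, went from 23.7 ± 3.31 to 32.6 ± 3.44 scaled TPM (0.45 ± 0.08), and the co-activator gene Eya4 from 27.7 ± 2.32 to 36.0 ± 4.49 (0.36 ± 0.09). Srf, which encodes serum response factor, fell from 40.2 ± 2.60 to 19.9 ± 2.37 (-0.98 ± 0.08), and Smarcd3, a subunit of the chromatin remodeller that works with MyoD, from 143 ± 10.5 to 74.3 ± 4.60 (-0.93 ± 0.07). On the deposited scale 8 rose and 3 fell, and with casted replicates 1 to 4 alone 3 rose and 8 fell. Counts of this and the following lists on the deposited scale stand beside 62.2% of all tested genes higher and 7.43% lower there. The median of all tested genes on that scale was 0.39.

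In the class IIa HDAC and MEF2 list, 19 of 20 genes were tested, 4 rose and 7 fell, with a median of 0.10 (12 and 4 on the deposited scale). Camk2b, a calcium/calmodulin kinase, rose from 70.4 ± 5.32 to 136 ± 15.3 scaled TPM (0.93 ± 0.07), and Sik1, a kinase that phosphorylates class IIa HDACs, from 9.64 ± 3.32 to 49.5 ± 16.8 (2.23 ± 0.26). Camk2a fell from 261 ± 27.6 to 119 ± 24.3 (-1.14 ± 0.15), so that these kinase genes moved in opposite directions. Smyd1, a muscle methyltransferase gene, fell from 277 ± 12.7 to 130 ± 34.2 (-1.13 ± 0.13).

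Genes that respond to denervation or are targets of myogenin mostly rose. Of 20 listed 18 were tested, of which 13 rose and 3 fell, with a median log2 change of 1.05, against 0.01 for all tested genes (15 and 1 on the deposited scale). With casted replicates 1 to 4 alone 12 rose and 2 fell, and with 5 to 8 alone 13 and 3. Chrnb1, the beta subunit gene of the muscle acetylcholine receptor, rose from 20.7 ± 2.72 to 54.3 ± 3.33 scaled TPM (1.36 ± 0.09). Gadd45a, a stress gene induced by denervation through HDAC4, rose from 29.4 ± 4.65 to 298 ± 108 (3.22 ± 0.32). Among those that fell were the co-receptor gene Lrp4, from 2.42 ± 0.41 to 1.44 ± 0.32 (-0.49 ± 0.08), and the adaptor gene Dok7, from 8.57 ± 2.66 to 3.58 ± 1.36 (-1.06 ± 0.19). Both belong to the synapse-building agrin pathway, of which Musk (0.82 ± 0.12) and Rapsn (0.54 ± 0.10) on the same list rose. On the deposited scale the fall of Lrp4 was not called (-0.15, limma adjusted p = 0.156), and that of Dok7 was (-0.62). In casted muscle with MOTS-c against uncasted muscle 15 rose and 2 fell, and without MOTS-c replicate 5 the counts were 14 and 3.

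Of the partners of RUNX1 and the modifiers of NCAM, 6 of 10 were tested, 1 rose and 1 fell, with a median of -0.08 (3 and 0 on the deposited scale, with a median of 0.38). Runx1t1, a corepressor gene, rose from 1.24 ± 0.19 to 5.06 ± 1.98 scaled TPM (1.37 ± 0.20). Cbfb, which encodes the common partner subunit of RUNX factors, fell from 87.3 ± 6.01 to 57.7 ± 7.90 (-0.60 ± 0.08), but on the deposited scale this was not called (-0.09, limma adjusted p = 0.331). The paralogs Runx2, Runx3 and Ncam2 did not pass the filter on low values.

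Of 6 genes listed under myoblast fusion 2 rose and 2 fell, and these counts were 3 and 1 without the scaling. Mymx, which encodes the fusion protein myomixer and is regulated by myogenic factors, was at 0 to 0.32 with a median of 0.10 scaled TPM in uncasted and at 1.88 to 19.7 with a median of 3.85 in casted libraries (2.43 ± 0.37). No uncasted library reached the filter of 0.5 TPM for Mymx, so that it was tested only through the casted groups. Mymk on the same list was not called (0.415 ± 0.191, limma adjusted p = 0.0663), but was on the deposited scale (0.483, adjusted p = 0.034). Cacng1, the gamma subunit gene of the muscle calcium channel, rose from 200.2 ± 11.1 to 773 ± 119 (1.93 ± 0.16). It is on the list although it is a channel gene, so that of the 2 that rose only Mymx is a fusion gene. The adhesion genes Jam3 (-0.67 ± 0.08) and Jam2 (-0.62 ± 0.11) fell. Jam3 on the deposited scale was at -0.23 (limma adjusted p = 0.0467) and Jam2 was not called (-0.14, adjusted p = 0.277). Of 8 proliferation genes 6 were tested, of which Pcna rose (0.23 ± 0.08) and Mcm2 fell (-0.50 ± 0.14), and 4 were not called. Mcm2 was not called on the deposited scale (-0.10, limma adjusted p = 0.577).

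The remaining marker lists give the makeup of the tissue beside these changes. Of 10 muscle fibre markers 1 rose and 9 fell with casting, with a median of -0.78 (1 and 6 on the deposited scale). Of 7 endothelial markers 6 fell and 1 rose, and falls were called for 5 of 6 markers of smooth muscle and pericytes, 2 of 5 of fibroblasts and 1 of 5 of adipocytes. On the deposited scale the counts were 2 higher and 2 lower of the endothelial markers, 0 and 1 of smooth muscle and pericytes, 3 and 1 of fibroblasts (the median going from -0.21 to 0.31) and 3 and 0 of adipocytes. Among all tested genes on that scale 62.2% were higher and 7.43% lower, with a median of 0.39. With the scaling, 28.7% were higher and 27.7% lower. With MOTS-c against water in casted mice, no gene of the 14 lists was called by limma, and 30 of 137 tested had an unadjusted p under 0.05, where 13.5% of all tested genes did.

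**Figure D5:**
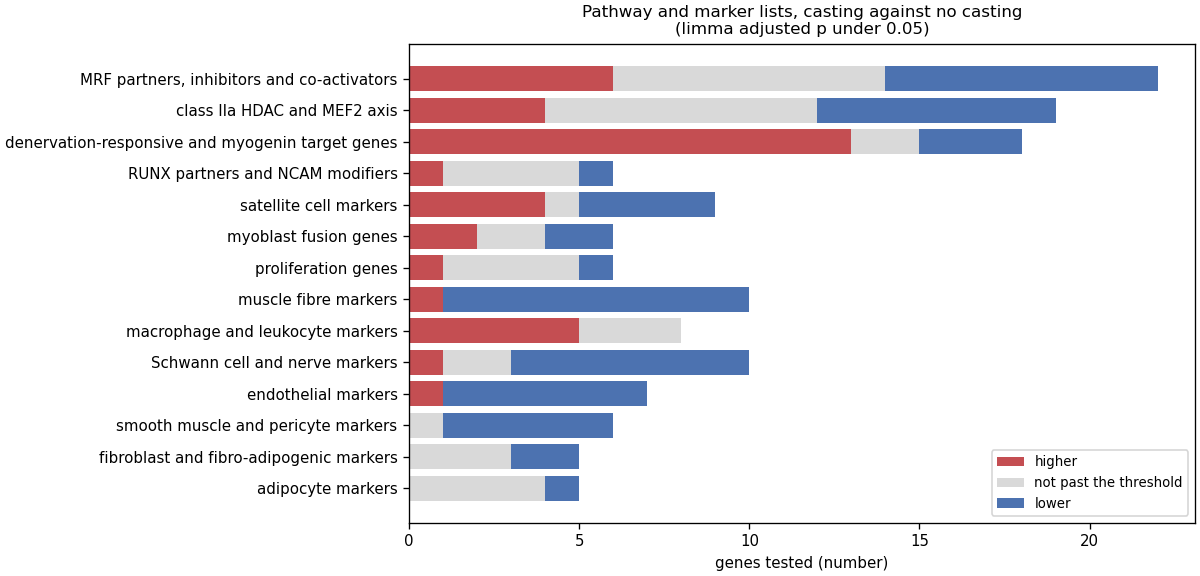
Bars count the tested genes of each pathway or marker list that were higher (red), lower (blue) or not past the threshold (grey) in casting against no casting, by limma adjusted p under 0.05. The denervation-responsive and myogenin target list has 13 higher and 3 lower, and the muscle fibre list 1 higher and 9 lower. The lists were chosen with earlier results of these data known.

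The 10 genes also differed in how they varied together over the 24 libraries, which share their groups and scaling, so that these Pearson correlations of log2(scaled TPM + 1) are descriptions. Runx1 and Myf6 had r = 0.96, and 0.77 after group means were subtracted. Hdac4 and Mef2a had 0.85, and 0.83 after subtraction, whereas Hdac4 and Ncam1 went from 0.66 to -0.003. Myod1 and Myf5 had 0.40 and 0.71, with casted replicate 1 highest for both.

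The genes most like each member were taken by the highest r over the 24 libraries, 3 per member, leaving out predicted-gene symbols. For Runx1 they were Rb1 (0.985), Eda2r (0.98) and Gadd45a (0.98), for Myf6 Tgif1 (0.98), Tec (0.975) and Ubxn4 (0.96), and for Ncam1 Chrna1 (0.945), the alpha subunit gene of the muscle acetylcholine receptor, Lgals3 (0.94) and Cfap36 (0.93). For Hdac4 they were Atp13a3 (0.94), Uprt (0.92) and Phc3 (0.91), for Mef2a Dip2c (0.89), Dennd4c (0.87) and Klhl24 (0.87), and for Mef2c Ptp4a2 (0.85), Ush1c (0.84) and the pseudogene Mpc1-ps (0.82). Myog was most like the ribosomal protein genes Rpl14 (0.87) and Rpl28 (0.84), whose counting is uncertain because of pseudogene copies, and Spsb2 (0.83). For Myod1 they were the clock output gene Dbp (0.81), Agpat5 (0.795) and Igfbp5 (0.79), for Myf5 Lmo2 (0.77), Ccdc88a (0.72) and Maged1 (0.71), and for Pax7 Fmnl1 (0.77), Tshz1 (0.75) and Gimap4 (0.75). After group means were subtracted, Rb1 kept r = 0.89 with Runx1, Tgif1 0.89 with Myf6 and Chrna1 0.73 with Ncam1.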

How the data were processed

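The deposited values are TPM, made by the authors with 1 table per library. FastQC, STAR, RSEM and DESeq2 and the genome build GRCm38.p6 are named per the submitters' processing notes, without versions. No strand setting is named. Per the labels' protocols, TRIzol and columns were used for extraction and poly-adenylated RNA was captured. TPM hold no depth, so no counting interval can be given. Symbols and coordinates (1-based) come from GENCODE M21 of GRCm38, where 55227 of 55487 identifiers received a symbol. Promoters come from RefSeq (GRCm38.p6), where 7 of 10 members matched.

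TPM were scaled between libraries by an unweighted trimmed mean of log ratios (30% of ratios and 5% of mean levels trimmed), computed over the genes that reached a TPM of 0.5 in 8 or more libraries. The factors were first computed over all genes, and the choice of the filtered genes, which the written design had not specified, was made after those results were seen. The 14690 genes past the filter were tested with limma 3.58.1 (R 4.3.3) with a mean-variance trend on log2(scaled TPM + 1), in 1 fit of 3 group means over 24 libraries. P-values were two-sided and adjusted (Benjamini-Hochberg) per comparison, and genes under 0.05 were called whatever their fold. The first and second comparisons share the uncasted libraries, and the first shares the casted ones with the comparison of MOTS-c against water. Ratios were tested by exact permutation. The model was tested on simulated data.

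The 10 members and the 14 lists of other genes were chosen with earlier results of these data known, as were the casted replicates set apart, and the motifs were chosen after sequences had been seen. All 10 members are named, with the 2 genes of smallest p in each direction from each pathway list and the 3 genes most like each member. Musk and Rapsn are named in addition, beside Lrp4 and Dok7 of the same pathway. Mymk is named beside Mymx, and Ngfr as the Schwann cell and nerve marker that rose. Replicate numbers were not taken as pairs, since the labels tie them to nothing shared: deviations of same-numbered libraries correlated at -0.25 to 0.37, above 0.1 in 6 of 24 pairs. No 2 libraries had equal values in more than 1.34% of tested genes. Each library is 1 mouse. Alternatives changed the scaling, pseudocount, filter, libraries in the fit, weights and block, and left out each library in turn.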

Additional observations from a re-analysis of the deposited data

Results flagged for a closer look

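Among 129 groups of 8 libraries looked at, 23 had a library at the top or bottom whose gap to the nearest of the others, divided by the range of the group, was above Dixon's 95% critical value. Chance flags about 1 in 20 groups. Among the 10 genes followed, Myf6 in casted replicate 5 held 492 scaled TPM, with the next library at 332, and Mef2c in casted replicate 4 held 628, with the next at 417.

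Casted replicate 5 with MOTS-c stood apart for several genes: Gadd45a was lowest there at 37.8 scaled TPM, with the next library at 203, while Cbfb (79.3), Dok7 (6.74), Smarcd3 (106) and Smyd1 (211) were highest, as was the sum of muscle fibre markers, 129100 against 98770 in the next. Casted replicate 1 was highest for Cbfb (76.4 scaled TPM) and Lrp4 (2.13). It was lowest for the sum of satellite cell markers (2472) and for the log2 ratio of Myog to Myod1 (-2.09, the next at -0.53). That sum, with a median of 3206 in casted libraries, is mostly desmin, which averaged 3100 there and is also expressed by fibres. Casted replicate 1 was the highest casted library for Pax7 (0.84). Casted replicate 2 was highest for Smyd1 (209), casted replicate 4 for Dok7 (6.45), and casted replicate 8 was lowest for the sum of smooth muscle and pericyte markers (121).

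In uncasted libraries, replicate 8 was highest for Cacng1 (225 scaled TPM), Pcna (21.4) and the log2 ratio of Mef2c to Mef2a (3.01) and lowest for Camk2a (202). Replicate 2 was highest for Hdac5 (35.8) and Sik1 (17.1), replicate 1 for the sum of macrophage and leukocyte markers (47.8), and replicate 4 was lowest for the log2 ratio of Myog to Myf6 (-5.42). No cause was tested for any of these.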

How the results depend on the processing

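Without the added scaling, 6 log2 changes turned in direction, all of genes not called with it: for casting Myod1 (0.09), Pax7 (0.05) and Mef2c (0.279), for casting with MOTS-c Pax7 (0.035) and Mef2c (0.322), and for MOTS-c against water Pax7 (-0.016). Median of ratios scaling, a pseudocount of 0.1, no filter, array weights and fits of only the 2 groups compared changed no call or direction of a member. Nor did the scaling over all genes above 0, which was run first and is listed as chosen after seeing the data. It called 4526 genes higher and 3816 lower with casting. A filter at a TPM of 2 left 8 of the 10 members, without Myf5 and Pax7, and no member's call changed. With replicate number as a block, 6 members were called with casting, 6 for casting with MOTS-c and 0 for MOTS-c, as without it, while over all genes the MOTS-c calls went from 2 higher and 1 lower to 13 and 5 (0 and 0 with a pseudocount of 0.1, no filter, array weights or 2 groups). Of 48 searches among the 8 libraries of another group, 14 found the best match at the same number, where 6 would if every library were as likely, a hint from the data and not the design. In sign-flip tests within replicate numbers (replicate block), whose smallest p limits the adjusted p, the ratios Myog to Myf6 (-0.66 and -0.603), Myog to Myod1 with casting (1.316) and Hdac4 to Hdac5 with MOTS-c (0.703) were not called (adjusted p = 0.075, 0.0938, 0.0625 and 0.0703).

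With casted replicates 1 to 4 alone, Mef2c turned with casting (0.11), and against them MOTS-c gave Myog 0.072, Myf6 0.224, Pax7 -0.035, Mef2c -0.223 and Runx1 0.028. The ratios were -0.469 for Myog to Myf6 and 0.99 for Myog to Myod1 (no longer called), and they turned for Mef2c to Mef2a (0.005) with casting and, for MOTS-c, for Myog to Myf6 (-0.134), Mef2c to Mef2a (-0.219) and Hdac4 to Hdac5 (0.081). With replicates 5 to 8 alone, 1 member, Mef2c, was called for MOTS-c, Myf5 (0.013) and Ncam1 (0.04) turned there, and the ratio of Mef2c to Mef2a was called with casting (-0.809) and with MOTS-c (0.596). These sets were not run for casting with MOTS-c, which holds no casted libraries. The cause was not tested.

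Leaving out each library in turn, 5 to 7 members were called with casting, 6 for casting with MOTS-c and 0 for MOTS-c. For MOTS-c the log2 changes ranged from -0.113 to 0.056 (Myog), -0.057 to 0.033 (Myf5), -0.164 to 0.058 (Myf6), -0.007 to 0.056 (Pax7) and -0.133 to 0.102 (Ncam1), so that each turned. Ratios ranged from -0.781 to -0.502 (Myog to Myf6) and -0.535 to -0.326 (Mef2c to Mef2a) with casting, from -0.277 to -0.164 (Mef2c to Mef2a) for casting with MOTS-c, and for MOTS-c from -0.101 to 0.178 (Myog to Myf6) and -0.204 to 0.029 (Hdac4 to Hdac5). Of the counts over the lists recomputed under these alternatives, an analysis added after seeing the data, 66 differed by more than 1.5 times and 1376 did not. TPM hold no depth, so what depth limits is unknown.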
